A study of Mus musculus with 21 samples.

Results

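The genes that copy DNA in S phase were followed in cystatin B deficient (Cstb-/-) mice and controls, in cerebella at postnatal day 7 (P7) and postnatal day 30 (P30) and in cultured cerebellar granule cells. The members are 40 gene symbols for replication licensing, the replication fork, nucleotide supply and chromatin assembly. They were listed by function, with earlier results of these data known. Every probe set annotated to 1 of these symbols alone was taken, which gave 89 of the 45037 probe sets tested and 39 of the 18193 genes represented. Chaf1a had no such probe set in the annotation used. Of the 39 genes, 32 had at least 2 probe sets.

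Before S phase, the origin recognition complex (Orc1, Orc6), Cdc6 and Cdt1 load the ring of Mcm proteins on DNA, and Cdc45 with the GINS proteins turns that ring into an active helicase. DNA polymerase alpha with primase then starts each strand, polymerases delta and epsilon extend it on the sliding clamp Pcna, and Fen1 and Lig1 join the fragments of the lagging strand. In the first postnatal weeks the precursors of granule cells divide in the outer layer of the cerebellum and then leave the cell cycle to become neurons, so these genes are known there as markers of dividing cells.

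Total RNA was hybridized to Affymetrix Mouse Genome 430 2.0 arrays, 1 sample per array, 21 arrays in all. Every mouse had the 129SvJ background and the genotypes were Cstb-/-, a constitutive loss of the protease inhibitor cystatin B, or wild type (control). P7 cerebellum had 4 arrays per genotype, P30 cerebellum had 3 per genotype, and the granule cells had 3 Cstb-/- and 4 control arrays. The granule cells came from cerebella of P5 pups, cleared of meninges and cultured for 2 days in vitro (DIV), and in both genotypes 10 µM cytosine arabinoside, which stops DNA synthesis in dividing cells, had been added on the day after plating against glial growth. The labels name separate samples but do not tie each culture to 1 animal, so the p-values measure the spread between these samples, which may be technical in part. At P7, 3 Cstb-/- and 1 control sample were labelled male and 1 and 3 female. Of the granule cell samples, 1 Cstb-/- and 2 control samples were labelled male and 2 and 2 female. At P30, 1 Cstb-/- sample was labelled female although the study's methods name males only.

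The deposited values were log2 signals from which the median of each probe set over its experiment had been subtracted. They hold differences between arrays of 1 experiment and no levels, so that neither the level of a gene nor the presence of a cell type's markers could be checked. All array values below are log2 values after subtracting the control mean of that probe set. A probe set was called at a fold of 1.3 or more with a limma adjusted p under 0.05 in the cerebella and under 0.01 in the granule cells, the thresholds of the study's methods. Cstb, the deleted gene, checked the labels. On its probe set 1422506_a_at the log2 difference of Cstb-/- minus control was -3.10 ± 0.15 (SE) at P7, -2.70 ± 0.07 at P30 and -2.08 ± 0.09 in granule cells, with every Cstb-/- array below every control array. In the granule cells 51.3% of all probe sets held equal values on 2 or more arrays, against 2.9% at P7 and 2.1% at P30. Of the 89 replication probe sets 20 held such ties in the granule cells, and none of these was called.

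The promoters of Mcm5, Mcm6, Pola1, Rfc3 and Rrm2 are shown because these genes, picked with their values known, were among those with large granule cell differences in 4 of the role groups described below. The sequences are those of RefSeq on the build GRCm38.p6, read 5′ to 3′ on the strand of the gene, from 250 bases before to 50 bases after the annotated start. Capitals mark TTTCGCGC, TTTGGCGC, TTTCCCGC or TTTGCCGC on either strand, forms of the sequence bound by E2F factors, which switch on S phase genes. Mcm5 (chr8:75109259-75109558, + strand) and Mcm6 (chr1:128359656-128359955, - strand) encode subunits of the helicase ring, Pola1 (chrX:93632106-93632405, - strand) the catalytic subunit of polymerase alpha, Rfc3 (chr5:151651159-151651458, - strand) a subunit of the clamp loader, and Rrm2 (chr12:24708004-24708303, + strand) the small subunit of ribonucleotide reductase.
Mcm5: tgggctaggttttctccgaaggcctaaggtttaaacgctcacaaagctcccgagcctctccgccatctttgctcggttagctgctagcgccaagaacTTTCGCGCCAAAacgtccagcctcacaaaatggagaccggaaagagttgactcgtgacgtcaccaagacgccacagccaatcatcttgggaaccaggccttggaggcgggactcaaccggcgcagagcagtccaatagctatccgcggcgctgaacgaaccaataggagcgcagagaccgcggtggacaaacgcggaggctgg
Mcm6: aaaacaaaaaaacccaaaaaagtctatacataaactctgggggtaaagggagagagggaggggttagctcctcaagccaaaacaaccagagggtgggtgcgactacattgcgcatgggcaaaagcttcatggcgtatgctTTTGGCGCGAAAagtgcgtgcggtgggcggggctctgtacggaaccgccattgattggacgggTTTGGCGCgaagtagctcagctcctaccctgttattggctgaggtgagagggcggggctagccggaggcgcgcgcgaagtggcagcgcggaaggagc
Pola1: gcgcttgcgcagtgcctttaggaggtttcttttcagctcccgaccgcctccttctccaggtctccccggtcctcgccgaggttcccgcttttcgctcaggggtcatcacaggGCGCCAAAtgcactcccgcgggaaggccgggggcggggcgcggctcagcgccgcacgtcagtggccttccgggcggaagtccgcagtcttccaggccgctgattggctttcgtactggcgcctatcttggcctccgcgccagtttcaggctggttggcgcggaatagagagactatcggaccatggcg
Rfc3: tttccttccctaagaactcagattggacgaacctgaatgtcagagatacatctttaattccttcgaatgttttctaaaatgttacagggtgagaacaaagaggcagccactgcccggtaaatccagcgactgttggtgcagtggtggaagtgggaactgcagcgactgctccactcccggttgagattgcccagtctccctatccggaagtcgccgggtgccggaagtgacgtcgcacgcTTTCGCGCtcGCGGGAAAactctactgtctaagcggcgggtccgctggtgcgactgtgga
Rrm2: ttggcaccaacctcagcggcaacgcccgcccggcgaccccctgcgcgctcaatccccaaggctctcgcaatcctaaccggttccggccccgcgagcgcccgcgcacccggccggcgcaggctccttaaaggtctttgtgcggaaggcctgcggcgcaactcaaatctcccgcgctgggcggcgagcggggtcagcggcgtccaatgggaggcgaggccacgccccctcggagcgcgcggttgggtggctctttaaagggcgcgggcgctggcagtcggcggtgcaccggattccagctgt
In Mcm5 the motif TTTCGCGC started 153 bases before the annotated start and overlapped TTTGGCGC on the other strand. Mcm6 held an overlapping pair of the same kind and 1 further TTTGGCGC. Rrm2 held no match in these 300 bases. Promoters were listed for 34 of the 40 symbols, and 13 of the 34 genes (38.2%) held a match in at least 1 listed promoter, against 2.61% of all 27025 genes in the table. Counted by promoter the shares were 13 of 39 (33.3%) and 2.26% of 32851. The matches lay in Orc1, Cdc6, Cdt1, Mcm3, Mcm5, Mcm6, Mcm7, Pola1, Pole2, Pold1, Rfc3, Lig1 and Uhrf1. A match is a description of the sequence and not a measured binding site.

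In the Cstb-/- granule cells, 35 of the 89 replication probe sets were higher than in controls by the stated threshold and none was lower. Among all 45037 probe sets the same threshold called 2.07% higher and 0.469% lower. The called probe sets belonged to 23 of the 39 genes and spanned Mcm2 to Mcm7, Cdc6, Cdt1, Cdc45 and the GINS proteins, polymerase alpha and primase, the clamp loader, ribonucleotide reductase, thymidine kinase 1 (Tk1) and Uhrf1. The median difference over the 89 probe sets was 0.67 on the log2 scale, and it was -0.02 over all probe sets. In RNA from whole cultures or tissue, more cells of a dividing type and more of these mRNAs per cell cannot be told apart. On 63 of the 89, all 3 Cstb-/- arrays lay above all 4 control arrays, as they did on 13.4% of all probe sets. By 1 probe set per gene, the lowest-numbered, 34 of 39 genes were higher, against 50.1% of all genes. Of the 39, 19 were called, against 2.68% of all genes called higher and 0.0934% called lower. At an adjusted p under 0.05 in place of 0.01, a threshold tried after the values had been seen, 56 were called higher and 1, Fen1 1436454_x_at, lower, beside 6.83% and 2.21% of all probe sets.

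**Figure D1:**
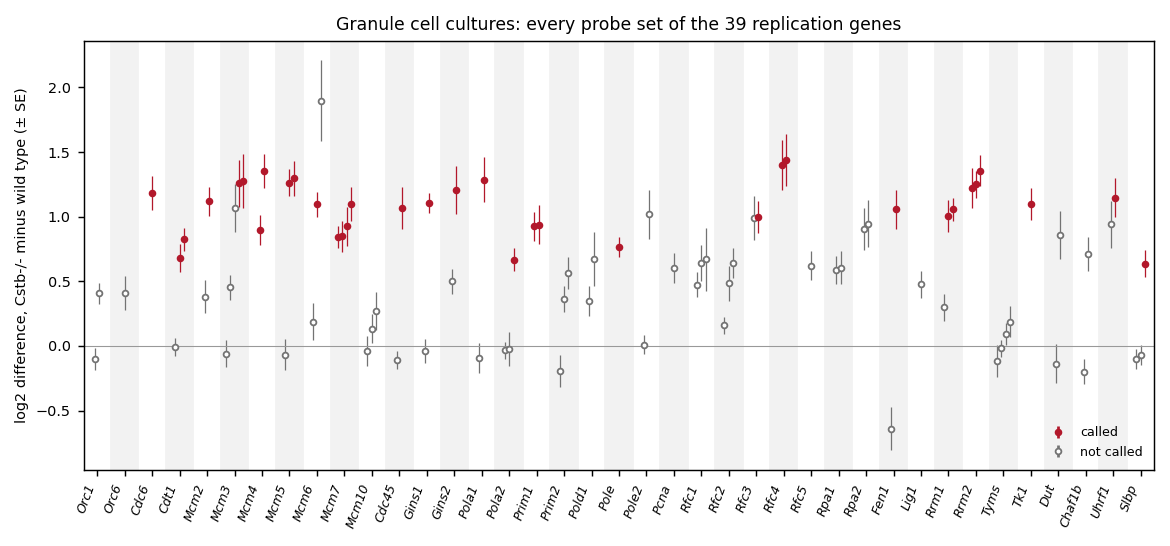
Log2 difference between Cstb-/- and control granule cells (vertical axis) with its limma standard error for each of the 89 probe sets, grouped by gene (horizontal axis) in the order of their roles; filled red points are called at a fold of 1.3 and adjusted p under 0.01. The called probe sets all lie above 0, from 0.64 (Slbp) to 1.44 (Rfc4), and many genes with a call have a further probe set near 0.

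The licensing and helicase genes held 35 of the probe sets, of which 28 were higher and 18 called, with a median of 0.84. Among all probe sets 45.5% were higher. Mcm5, a subunit of the helicase ring, read 1.15, 1.26 and 1.38 on the Cstb-/- arrays 1, 2 and 3 and 0.16, -0.21, -0.05 and 0.09 on the control arrays 4, 5, 7 and 8 on probe set 1415945_at, in the same array order as all values that follow. The groups stood far apart, and the difference was 1.26 ± 0.11 (SE; a fold of 2.4, limma adjusted p = 0.000535). Mcm3, another subunit of the ring, read 1.46, 0.84 and 1.53 against 0.30, -0.02, -0.42 and 0.15 on 1420028_s_at, a difference of 1.28 ± 0.21 with an adjusted p of 0.00992 from limma. Here Cstb-/- array 2 was the lowest of its group but stood above the highest control. Cdc6, which loads the ring at origins, read 1.10, 1.11 and 1.34 against 0.33, -0.21, -0.06 and -0.06, a difference of 1.18 ± 0.13 that passed the threshold. Control array 4 was the highest control on Cdc6 and on Mcm3.

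The other subunits of the ring also held called probe sets. Mcm2 rose by 1.12 ± 0.11 on 1448777_at, Mcm4 by 1.36 ± 0.13 on 1436708_x_at, Mcm6 by 1.09 ± 0.09 on 1416251_at, and Mcm7 on all 4 of its probe sets by 0.84 to 1.10. The largest difference of all 89 belonged to Mcm6 on 1438852_x_at, where the Cstb-/- arrays read 2.27, 1.32 and 2.10 and the controls 0.79, -0.38, -0.23 and -0.18. The groups did not overlap, but the spread within each was wide and the limma adjusted p of 0.0101 missed 0.01 for a difference of 1.90 ± 0.31. Gins1, a GINS subunit of the active helicase, had the smallest adjusted p of the 89: it read 1.03, 1.10 and 1.20 against -0.01, 0.01, -0.08 and 0.09, a difference of 1.11 ± 0.08 (limma adjusted p = 0.00020). Its sister subunit Gins2 rose by 1.20 ± 0.19 on 1452881_at. Cdc45, the third part of the active helicase, read 0.83, 1.25 and 1.13 against 0.04, 0.03, -0.36 and 0.29 and rose by 1.07 ± 0.16. Its call rested on the full set of arrays: it passed in 0 of the 7 fits that left out 1 array. Other called probe sets passed in only 1 of the 7. Among them were Mcm3 1420028_s_at, Mcm7 1416030_a_at and 1416031_s_at, Gins2 1452881_at, Cdt1 1424144_at, Pola2 1448369_at, Prim1 1449061_a_at and Slbp 1460168_at. Cdt1, the partner of Cdc6 in loading, rose by 0.83 ± 0.09 and 0.68 ± 0.11 on 2 of its 3 probe sets. The origin recognition subunits did not pass, with 0.41 ± 0.08 for Orc1 on 1422663_at and 0.41 ± 0.13 for Orc6. Mcm10, which helps to start the helicase and is no part of the ring, gave -0.04, 0.27 and 0.13 on its 3 probe sets, and its 2 genotypes overlapped on each of them.

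**Figure D2:**
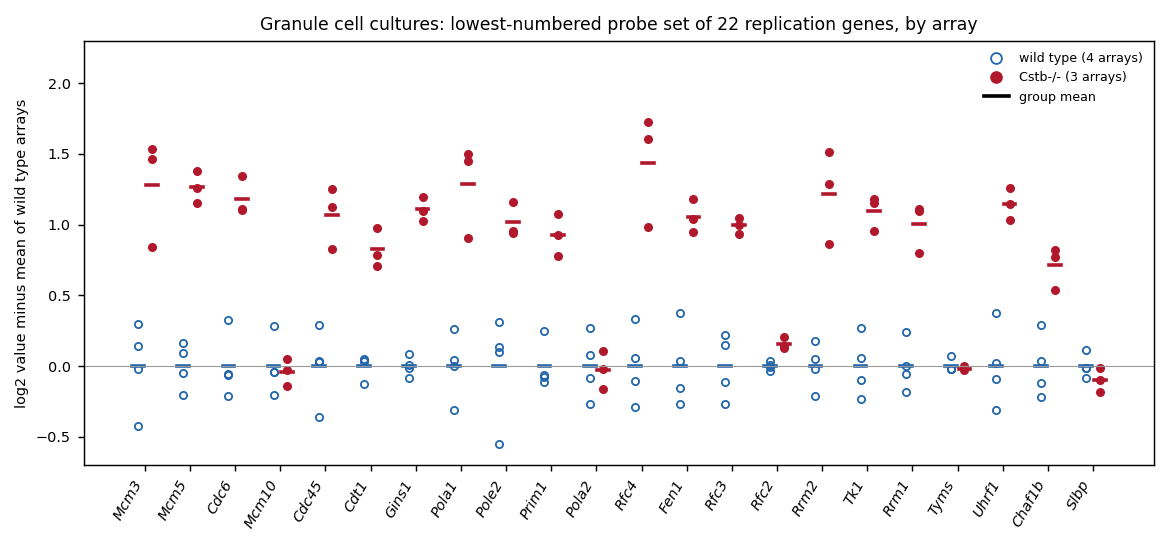
Log2 value of the lowest-numbered probe set of 22 replication genes (horizontal axis) in each granule cell array after subtracting the control mean (vertical axis); open blue circles are controls, filled red circles Cstb-/- and short lines group means. The genotypes do not overlap except in Mcm10, Pola2, Tyms and Slbp, and the gap is narrow in Rfc2.

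Of the 15 polymerase and primase probe sets 11 were higher and 5 called, with a median of 0.56. Pola1, the catalytic subunit of polymerase alpha, read 1.50, 0.91 and 1.45 on the Cstb-/- arrays and 0.27, -0.31, 0.05 and 0.00 on the controls, a difference of 1.29 ± 0.18 (limma adjusted p = 0.00482). The groups stood apart, with Cstb-/- array 2 the lowest of its 3. Prim1, the catalytic primase subunit that lays down the RNA primer, read 0.78, 1.07 and 0.93 against -0.07, -0.11, 0.25 and -0.06 and rose by 0.93 ± 0.11; its other probe set rose by 0.94 ± 0.15. Pole, the catalytic subunit of the leading strand polymerase epsilon, rose by 0.77 ± 0.08. Its accessory subunit Pole2 read 0.95, 0.94 and 1.16 against 0.10, -0.55, 0.31 and 0.14. Control array 5 lay far below the other controls, and the difference of 1.02 ± 0.19 missed the threshold (limma adjusted p = 0.0152). Pola2, the regulatory subunit of polymerase alpha, rose by 0.67 ± 0.09 on 1448369_at and gave -0.03 and -0.03 on its other probe sets. Prim2 (0.36 and 0.56 on 2 of 3 probe sets) and Pold1 (0.35 and 0.68), the catalytic subunit of polymerase delta, were not called.

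The clamp, clamp loader, single-strand binding and fragment joining genes had 18 of 19 probe sets higher but only 4 called, with a median of 0.64. Rfc4, a subunit of the replication factor C loader that opens the clamp, read 1.73, 0.98 and 1.60 against 0.33, -0.29, -0.10 and 0.06. That was the largest called difference of the 89, 1.44 ± 0.20 (a fold of 2.71, limma adjusted p = 0.0053), and again Cstb-/- array 2 was the lowest of its group and above all controls. Rfc3, of the same loader, read 0.94, 1.00 and 1.05 against 0.22, -0.27, -0.11 and 0.15 and rose by 0.99 ± 0.12. Fen1, the flap endonuclease that trims lagging strand fragments, read 0.95, 1.04 and 1.18 against 0.38, -0.27, -0.15 and 0.04 and rose by 1.06 ± 0.15. The clamp itself, Pcna, had 1 probe set, which read 0.35, 0.79 and 0.67 against 0.04, -0.17, 0.01 and 0.12: the groups did not overlap, and the difference of 0.60 ± 0.12 had a limma adjusted p of 0.0195, over the threshold. Rpa1 and Rpa2, which coat single-stranded DNA, gave 0.59 to 0.94 on 4 probe sets, Rfc5 0.62, Rfc1 0.48 to 0.67 and the ligase Lig1 0.48, and none of them was called. Rfc2 gave 0.16 ± 0.07 on its lowest-numbered probe set, with Cstb-/- values of 0.13, 0.14 and 0.21 close above control values of -0.01, 0.01, 0.03 and -0.04. Its other probe sets were also higher and not called, and 1457638_x_at passed in 1 of the 7 fits that left out 1 array.

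Of the 13 nucleotide supply probe sets 10 were higher and 6 called, with a median of 0.86. Both subunits of ribonucleotide reductase, which makes deoxyribonucleotides, rose. Rrm2 read 1.33, 1.15 and 1.58 against 0.09, -0.21, 0.07 and 0.05 on 1448226_at and rose by 1.35 ± 0.12 (limma adjusted p = 0.000721), and its other probe sets rose by 1.22 and 1.25. Rrm1 read 1.05, 1.03 and 1.10 against 0.11, -0.19, 0.07 and 0.01 on 1448127_at, so that no Cstb-/- array came near a control, and rose by 1.06 ± 0.09 there and by 1.00 ± 0.12 on 1415878_at. Tk1, which salvages thymidine, read 0.96, 1.18 and 1.15 against -0.10, -0.23, 0.06 and 0.27 and rose by 1.10 ± 0.13. Thymidylate synthase (Tyms), which makes thymidylate anew, gave -0.12 to 0.19 on its 4 probe sets, and the genotypes overlapped on all of them. A further probe set is annotated to Tyms and a pseudogene together and was left out by the rule. Dut, which removes dUTP, gave 0.86 ± 0.18 on 1419270_a_at (limma adjusted p = 0.0253) and -0.14 on 1419269_at.

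The chromatin genes had 7 probe sets, 4 higher and 2 called. Uhrf1, which recruits the maintenance DNA methyltransferase to new DNA, read 1.03, 1.26 and 1.15 against 0.38, -0.31, -0.09 and 0.02 and rose by 1.15 ± 0.15 (limma adjusted p = 0.00425). Chaf1b, a subunit of the assembly factor that places histones behind the fork, gave 0.71 ± 0.13 on 1423877_at, not called, with all Cstb-/- arrays above the controls. Its other probe set, 1431275_at, went the opposite way with -0.20 and was not called. The histone mRNA binding protein Slbp rose by 0.64 ± 0.10 on 1460168_at and gave -0.10 and -0.07 on its other 2 probe sets.

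Probe sets of 1 gene often disagreed. Of the 23 genes with a call, 9 (Cdc45, Cdt1, Fen1, Gins1, Mcm3, Mcm5, Pola1, Pola2 and Slbp) also had a probe set of the opposite sign, in all but 1 of them between -0.11 and -0.01 and overlapping between genotypes. The exception was Fen1 1436454_x_at, where Cstb-/- arrays read -0.94, -0.24 and -0.74 and controls 0.12, 0.06, -0.25 and 0.07. Control array 7 lay as low as Cstb-/- array 2 there, and the difference of -0.64 ± 0.17 had a limma adjusted p of 0.0469. With the levels subtracted, a probe set that detects little signal cannot be told apart from one whose target did not differ. Names ending in _s_at, _x_at or _a_at mark probe sets that can match more than 1 transcript, and 31 of the 89 end so. Without them 20 of 58 probe sets were called, all higher. The share of all probe sets called in that fit is not given here.

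The 3 Cstb-/- arrays had medians of 0.68, 0.57 and 0.80 over the 89 probe sets and the 4 controls 0.09, -0.10, 0.00 and 0.02. Among the controls, array 4 was the highest on 41 of the 89 and array 5 the lowest on 46, against 24.8% and 29.2% of all probe sets. Leaving out 1 array at a time moved the number called from 35 to between 9, without Cstb-/- array 3, and 42, without Cstb-/- array 2. It was 14 without Cstb-/- array 1, and 18, 11 and 11 without control arrays 5, 7 and 8. Without control array 4 it stayed closest to 35. In every one of the 7 fits 8 probe sets passed: Mcm4 1436708_x_at, Mcm5 1415945_at, Mcm6 1416251_at, Gins1 1452598_at, Pole 1448650_a_at, Rrm1 1448127_at, and Rrm2 1434437_x_at and 1448226_at. The methods' test, without limma's shared variance, called 1 of the 89 when p was adjusted over all probe sets and 17 when it was adjusted over those past the fold only. The share of all probe sets called in these fits and tests is not given here, so the counts cannot be set beside it.

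Other genes of the pathway, 1 probe set each, were described beside the members, and any further probe sets of these genes are not described here. Among all genes, 1 probe set each, 2.68% were called higher and 0.0934% lower. Of 41 further replication genes 6 were called higher and none lower, with a median of 0.37. They were Gmnn (1.61 ± 0.16), the inhibitor of Cdt1, the chromatin remodeller Hells (1.53 ± 0.19), Dbf4 (1.12 ± 0.15), the activating subunit of the kinase that fires origins, Rnaseh2a, Tipin and Chtf18. Of 21 E2F and RB regulators 4 were called, cyclin A2 (Ccna2, 1.63 ± 0.13), Cks1b, E2f7 and Fbxo5. E2f1, E2f2 and E2f3, the activating factors of the family, gave 0.26, 0.01 and -0.03 and were not called. Of 11 replication checkpoint genes Brca1 (1.26 ± 0.15) and Wee1 were called, while Chek1 gave -0.02. Of 15 p53 targets Ccng1 and Eda2r were called with a list median of 0.10, and the cell cycle inhibitor Cdkn1a gave -0.27 and was not called. The mitosis genes had the highest median of these lists, 1.57, with 21 of 24 called higher and 1.85 ± 0.08 for the mitotic kinase Cdk1.

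Markers of some other cell types were called in the same cultures. Among all genes, 1 probe set each, 50.1% were higher, 2.68% called higher and 0.0934% called lower. Of 14 fibroblast and meninges markers 9 were called higher, among them collagens Col1a1 (3.59 ± 0.19) and Col3a1 (3.49 ± 0.18), and the list median was 1.21 to 1.24 on the Cstb-/- arrays and -0.07 to 0.08 on the controls. Of 8 smooth muscle and pericyte markers 3 were called, with list medians of 0.48 to 0.57 against -0.13 to 0.04. Of 12 astrocyte markers Aldh1l1 and Gja1 were called, with medians of 0.36 to 0.68 against -0.13 to 0.19. Of 11 oligodendrocyte markers Olig2 and Pdgfra were called higher, while 7 were lower and 4 higher in all. The list medians were -0.28 to 0.14 against -0.08 to 0.13, and Pdgfra is also on the fibroblast list. No marker of endothelium (8), microglia (12) or choroid plexus (10) was called. Of 15 granule cell precursor markers cyclin D2 (Ccnd2) was called higher, with list medians of 0.03 to 0.24 against -0.05 to 0.04, and of 13 mature granule neuron markers Fat2 was called lower, with medians of -0.15 to 0.13 against -0.05 to 0.04. The part of these other cells in the replication gene differences was not tested.

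**Figure D3:**
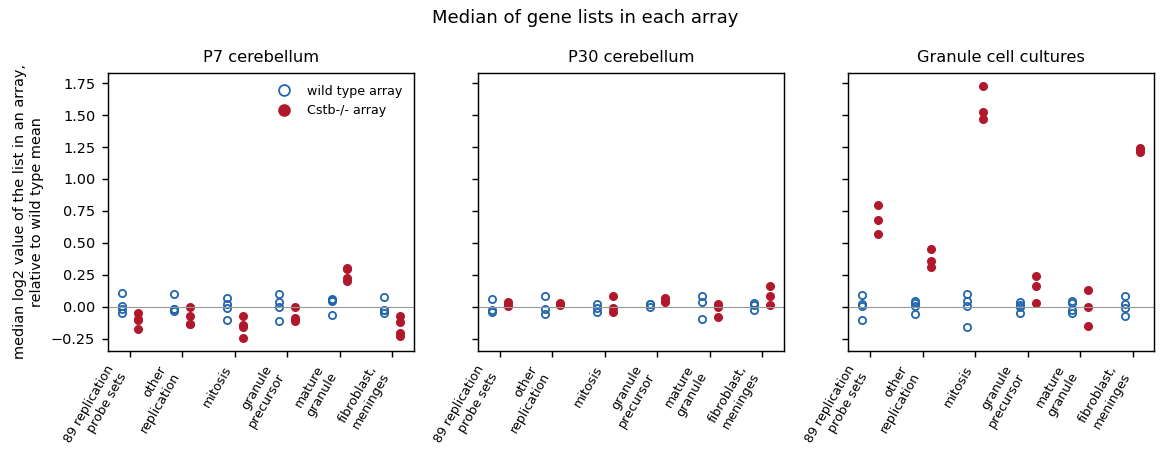
Median log2 value of each gene list in each array relative to the control mean (vertical axis), for the 89 replication probe sets and 5 lists with 1 probe set per gene (horizontal axis), in the 3 experiments; open blue circles are control arrays and filled red circles Cstb-/- arrays. In granule cells the Cstb-/- arrays lie at 0.57 to 0.80 for replication, 1.47 to 1.73 for mitosis and 1.21 to 1.24 for fibroblast markers, and in P7 cerebellum they lie below 0 for replication.

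In P7 cerebellum, when granule cell precursors still divide, the same probe sets leaned the other way by small amounts and none was called. Of the 89, 70 were lower and 19 higher in Cstb-/- mice, with a median of -0.12 against 0.01 over all probe sets. Of all 45037 probe sets 20836 were lower and 24201 higher. The threshold called 0% of all probe sets higher and 0.00666% lower. At an unadjusted p under 0.05, 19 of the 89 were lower (4.99% of all probe sets) and 2 higher (4.47%). On 12 of the 89 all 4 Cstb-/- arrays lay below all 4 controls, as they did on 2.84% of all probe sets. These 12 were in Cdc6, Cdt1, Mcm4 (both probe sets), Mcm6, Pola1, Prim1, Prim2, Pcna, Rfc2, Rrm1 and Uhrf1.

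Mcm6 1438852_x_at again had the largest difference. Its Cstb-/- arrays 1, 2, 3 and 5 read -0.53, -0.29, -0.61 and -1.11 and its control arrays 1, 2, 3 and 4 0.01, 0.24, -0.06 and -0.20, a difference of -0.63 ± 0.15 (limma adjusted p = 0.292). Mcm4 1436708_x_at read -0.42, -0.29, -0.45 and -0.71 against -0.11, 0.24, 0.14 and -0.27, a difference of -0.47 ± 0.12 (limma adjusted p = 0.332). In both genes Cstb-/- array 5 was the lowest, and no Cstb-/- array reached the controls. Cdc6 read -0.18, -0.32, -0.52 and -0.40 against -0.07, 0.14, 0.01 and -0.08, a difference of -0.36 ± 0.09. Prim2 1418035_a_at gave -0.36 ± 0.08 and Pola1 -0.33 ± 0.12. Mcm5, Gins1, Cdc45 and Tk1, called in granule cells, gave -0.11, -0.05, 0.02 and -0.07 on their lowest-numbered probe sets and overlapped between genotypes. Over the 89 probe sets the Cstb-/- arrays had medians of -0.05, -0.10, -0.18 and -0.10 and the controls 0.00, 0.11, -0.05 and -0.02, so that array 1 of the Cstb-/- group lay within the controls. Control array 2 was the highest control on 51 of the 89, against 22.3% of all probe sets.

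By role the P7 medians were -0.12 for licensing and helicase, -0.12 for polymerases and primase, -0.14 for the clamp group, -0.09 for nucleotide supply and -0.03 for chromatin. With labelled sex as a covariate, which was distributed unequally between the P7 genotypes, 4 of the 89 were called lower (1.99% of all probe sets): Mcm4 1436708_x_at, Mcm6 1438852_x_at, Prim2 1418035_a_at and Rfc4 1424321_at. Beside the replication genes, 23 of 24 mitosis genes were lower with a median of -0.17, 12 of 15 granule cell precursor markers were lower with a median of -0.05, and all 13 mature granule neuron markers were higher with a median of 0.20. Of all 18193 genes, 1 probe set each, 8185 were lower and 10008 higher. Choroid plexus markers were lower on all 10 genes with a median of -2.08, from -0.49 to -2.69 on the Cstb-/- arrays and -0.14 to 0.24 on the controls. Oligodendrocyte markers were higher on 9 of 11 genes with a median of 0.35, from 0.17 to 0.71 on the Cstb-/- arrays and -0.14 to 0.15 on the controls. Fibroblast and meninges markers were lower on 11 of 14 genes with a median of -0.13, from -0.23 to -0.07 on the Cstb-/- arrays and -0.05 to 0.07 on the controls. None of these was called, and their part in the replication gene values was not tested.

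In P30 cerebellum, when granule cell production has ended, none of the 89 probe sets was called. They split into 50 higher and 39 lower with a median of 0.02, while 47.0% of all probe sets were higher. The threshold called 0.138% of all probe sets higher and 0.00666% lower. At an unadjusted p under 0.05, 3 were higher and 1 lower, against 4.16% and 3.55% of all probe sets. The largest difference was Rrm2 1434437_x_at, whose Cstb-/- arrays read 0.74, 0.24 and 1.33 and controls -0.18, 0.43 and -0.24, a difference of 0.77 ± 0.26 (limma adjusted p = 0.539). The other probe sets of Rrm2 gave 0.17 and 0.25. Mcm5 gave -0.16 ± 0.11, Pcna 0.00 ± 0.08 and Cdc6 0.11 ± 0.12. In the same arrays 6 of 12 microglia markers were called higher, against 0.187% of all genes. Their list medians were 0.64 to 0.93 on the Cstb-/- arrays and -0.16 to 0.09 on the controls. All 12 astrocyte markers were higher, against 51.1% of all genes. Of the 12, 1, Gfap, was called, with list medians of 0.21 to 0.31 against -0.05 to 0.06. All 10 choroid plexus markers were lower and none was called, with list medians of -1.997 to 1.05 against -0.94 to 0.92, so that the genotypes overlapped. The part of these cells in the P30 values was not tested.

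**Figure D4:**
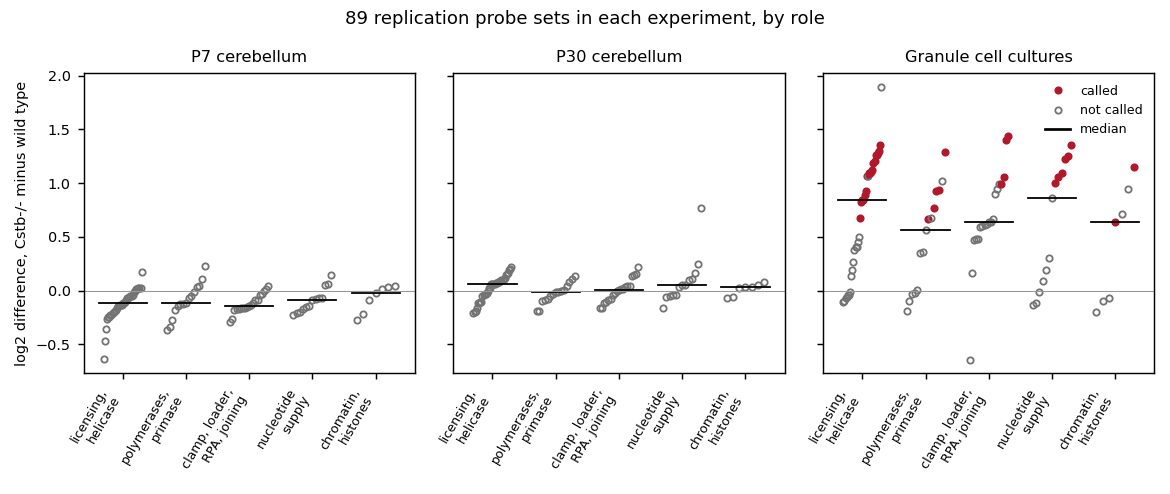
Log2 difference between Cstb-/- and control (vertical axis) of the 89 replication probe sets by role (horizontal axis) in P7 cerebellum, P30 cerebellum and granule cells; filled red points are called, open grey points not called, and black lines are medians. Role medians lie between -0.14 and -0.03 at P7, between -0.01 and 0.06 at P30 and between 0.56 and 0.86 in granule cells.

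The genotype difference in granule cells was compared directly with that in the cerebella, by contrasts in 1 limma fit over all 6 groups. Against P7 it was larger by an adjusted p under 0.05 on 61 of the 89 probe sets and smaller on 1, Fen1 1436454_x_at, with a median contrast of 0.76. Of all probe sets 13% passed as higher and 7.32% as lower. Against P30 it was larger on 49 and smaller on none, with 3.91% of all probe sets passing as higher and 1.18% as lower. In either direction 20.3% of all probe sets passed against P7 and 5.1% against P30. The fit pools the spread of tissue and culture arrays for each probe set, which is a limit of these p-values. For Mcm5 1415945_at the contrast was 1.37 ± 0.17 against P7 (limma adjusted p = 8.94e-06) and 1.42 ± 0.18 against P30 (limma adjusted p = 2.75e-05). For Mcm6 1438852_x_at it was 2.53 ± 0.32 against P7, the sum of a higher value in culture and a lower one in the tissue. For Pcna it was 0.77 ± 0.13 (limma adjusted p = 0.000309). Between P7 and P30 none of the 89 genotype differences passed in the limma fit, against 0.124% of all probe sets (0.00888% with the larger and 0.115% with the smaller difference at P7). At an unadjusted p under 0.05 the difference was smaller at P7 on 10 of the 89 and larger on none. Of all 45037 probe sets it was smaller on 1860 and larger on 1643. The cultures and the tissues differ in age, cell makeup, cytosine arabinoside and array normalization at once, and the shares of these cannot be told apart.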

How the data were processed

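Total RNA was hybridized to Affymetrix Mouse Genome 430 2.0 arrays. The authors made expression values with RMA in GeneSpring GX (version not given in the sources used here), left out some P7 and granule cell arrays after principal component analysis, subtracted the median of each probe set over its experiment, and deposited log2 values. Those arrays are not analysed here. The subtraction leaves no level, so the authors' filter on low expression was not applied. The file holds 45101 probe sets on 21 arrays, 64 of them array controls that were left out, and all its value columns were used. Their number and the array signal set the precision.

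Groups came from the GEO labels. Cstb-/- and control arrays were compared within each experiment with limma 3.58.1 in R 4.3.3 (lmFit and eBayes, Benjamini-Hochberg over 45037 probe sets), and the experiments were compared by contrasts in 1 fit over all 6 groups. Calls needed a fold of 1.3 and an adjusted p under 0.05 (cerebella) or 0.01 (granule cells). No set test was run. The methods' t-test was an alternative. The fits were tested on simulated data. Symbols are those of the platform annotation, in which 34945 probe sets have 1 symbol and 932 several. A gene was represented by its lowest-numbered probe set. Values on every array were given for the 3 members with the largest and the 1 with the smallest difference in granule cells in each role group, for members with a call and probe sets of both signs, and for a few others chosen after their values were seen. The members, lists and tests were chosen with earlier results of these data known. The replicate numbers that P7 and P30 arrays share between genotypes come from the labels and did not pair the arrays: the correlations of their deviations from the group means were 0.01, 0.05 and 0.17 at P7 and -0.04, -0.18 and -0.03 at P30. Promoters were searched with Python 3.11.15 and figures drawn with matplotlib 3.10.9.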

Additional observations from a re-analysis of the deposited data

Results flagged for a closer look

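The genotype difference of 62 of the 89 replication probe sets was not the same in granule cells as in P7 cerebellum, and that of 49 was not the same as in P30 cerebellum, by limma contrasts at an adjusted p under 0.05. The same contrasts differed on 20.3% and 5.1% of all probe sets. Single arrays stood apart from the other 3 of their group in 7 of 69 groups of 4 arrays examined, where chance gives about 1 in 20. At P7 these were Slbp on Cstb-/- array 1 (0.50 on the log2 scale, the others -0.16 to -0.11) and on control array 1 (0.21, the others -0.09 to -0.05), Mcm3 on control array 3 (-0.32, the others 0.07 to 0.14) and Uhrf1 on control array 2 (0.23, the others -0.10 to -0.06). In granule cells they were control arrays, Prim1 on array 7 (0.25, the others -0.11 to -0.06), Tyms on array 4 (0.069, the others all -0.02) and Cdt1 on array 5 (-0.12, the others 0.03 to 0.05). For Tyms the other 3 values were tied, so any other value on array 4 would have been flagged. That flag carries no information, and the rate of 1 in 20 does not apply to it. Prim1 and Cdt1 on these probe sets were called with the arrays included.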

How the results depend on the processing

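The number of replication probe sets called in granule cells was 35. It was 1 with the methods' test over all probe sets, 17 with that test over probe sets past the fold, 59 with one fit over all groups (58 of them higher), 57 at an adjusted p under 0.05, a threshold chosen after seeing the data, and 20 of 58 without probe sets ending in s, x or a. Without 1 array at a time it ran from 9 to 42. Except at 0.05, the share of all probe sets called under these settings is not given here. Whether the members moved with the whole array under them cannot be judged. The median difference of 0.67 ran from 0.58 to 0.73 without 1 array. At P7 the count of 0 became 4 with labelled sex as a covariate. With the replicate block it was 0 at P7 and 0 at P30, so the block changed no call. No granule cell block was possible because the genotypes share no replicate number there. No call of a named gene changed direction under any alternative run. Of their granule cell values under single alternatives, 60 lost a call and 7 gained one, while 191 kept their side of the threshold (those not called within the spread of the replicates) and 6 moved beyond that spread. The fits without some probe sets or arrays rest on fewer of them, and the cause of the other shifts was not tested. Counts of differing contrasts moved by less than 1.5 times with arrays centred on their own median or a robust variance. The limits are 3 or 4 arrays a group, values without levels, and no second array platform.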
